A study of Mus musculus with 24 samples.

Results

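Epididymal fat cultures from mice labelled as Senp2 knockouts and treated with Cebpb siRNA were compared with control cultures in 6 of the 24 libraries of the series. The former, called the combined group here (eWAT aKO siCEBPb, 3 libraries), came from mice labelled Senp2flox/flox ; Adipoq Cre and received siRNA against C/EBPβ. The control group, eWAT Cont siNS (3 libraries), came from mice labelled Senp2flox/flox and received siNS, a name that the labels do not explain. Both groups therefore carry the floxed Senp2 allele, and the knockout group alone carries Cre under the Adipoq promoter, which is active in adipocytes. All libraries were made from cells of the stromal vascular fraction that were induced to become adipocytes for 2 days and then kept in insulin for 5 days. Knockout cultures with siNS (eWAT aKO siNS, 3 libraries) gave the starting difference, and control cultures with the Cebpb siRNA (eWAT Cont siCEBPb, 3 libraries) are given beside it. No age is given here, and nothing in the labels says whether replicates came from separate animals or cultures, so p-values measure the spread between these libraries, which may be technical.

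SENP2 is a protease that removes SUMO, a small protein tag, from other proteins. C/EBPβ, the product of Cebpb, is a transcription factor that is induced early in fat cell differentiation and acts upstream of Pparg and Cebpa, the factors that maintain the fat cell state. It is also known for driving acute phase and inflammatory genes in macrophages and stromal cells. The comparison asks which genes that differ in knockout cultures are back near the control level once Cebpb is lowered, and which remain apart.

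The depot label was not borne out by depot markers. Wt1, a transcription factor of the visceral mesothelium and its descendants, stood at 14.3, 15.1 and 15.9 CPM (the depth-scaled count, here with TMM scaling) in the control libraries labelled eWAT. It stood at 14.3, 14.7 and 14.2 CPM in those labelled iWAT. Tbx15 and Hoxc9, which are known for higher levels in subcutaneous fat, were present under both labels. Between the control groups of the 2 depots 178 genes (1.2% of those tested) differed, and 213 (1.44%) differed between the 2 aKO siCEBPb groups. The visceral markers Gata4, Bnc1 and Msln held 16, 11 and 4 counts in the 3 eWAT control libraries together. These counts are low and no iWAT counts are set beside them, so they do not compare the depot labels. In both groups of the combined comparison, libraries of the same number under the 2 depot labels also deviated together from their group means. Across 8159 genes r was 0.748, 0.424 and 0.537 in aKO siCEBPb and 0.27, 0.425 and 0.312 in Cont siNS, where genes are not independent replicates. In Cont siCEBPb r was 0.0796, 0.235 and 0.16, and in aKO siNS it was -0.528, -0.174 and 0.541. The 3 values of a group are tied to each other, because each library was centred on the mean of its 3. Values from libraries labelled iWAT are therefore given beside the eWAT values, not as an independent repeat.

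Gene counts in the 9 eWAT libraries of the knockout and control groups on which the classes rest ranged from 13025727 to 15388744. In the series, 23 libraries held 8435494 or more, and iWAT aKO siNS replicate 2 held 603585. That library enters no eWAT contrast but shares the estimate of spread. On the first principal component of the 12 eWAT libraries (70.2% of variance), aKO siCEBPb replicate 1 lay at 33.4 and replicates 2 and 3 at 24.7 and 22.2, while the control libraries lay between -22.8 and -17.2. Counts that rest on replicate 1 are given with and without it.

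Cebpb itself was read first as a check of the siRNA. Its level was 156, 166 and 181 CPM in Cont siNS and 141, 158 and 155 CPM in aKO siNS. With the siRNA it was 20.1, 32.6 and 29.5 CPM in knockout cultures, and 57.3, 42.3 and 51.5 CPM in control cultures. The fall from control in the combined group was -2.62 ± 0.17 on the log2 scale (SE, n = 3 per group, edgeR adjusted p = 8.87e-11), and in control cultures it was -1.73. Transcript thus remained in every library with the siRNA. Senp2 stood at 55.9, 50.9 and 52.8 CPM in the combined group and at 57.1, 53.6 and 52.7 CPM in control, and the libraries overlapped. The difference was -0.03 (95% interval -0.18 to 0.11), against -0.20 in knockout cultures with siNS (edgeR adjusted p = 0.0519). The count of a gene takes in exons that the deletion spares and also the RNA of cells that lack Cre, so this level does not check the deletion. Of 19 tested genes of the SUMO pathway, 4 rose and 1 fell in the combined group, where 19.0% of all tested genes rose. The 4 rises became 2 without combined replicate 1, and likewise without control replicate 1, 2 or 3.

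In the combined comparison 5804 of 14785 tested genes (39.3%) differed from control at an adjusted p of 0.05 in edgeR's quasi-likelihood test. Of these, 2806 rose (19.0%) and 2998 fell (20.3%). Without regard to the test, the 3 combined libraries did not overlap the 3 control libraries for 7396 genes (50.0%). Knockout alone raised 1405 genes (9.5%) and lowered 1608 (10.9%). Lowering Cebpb within knockout cultures raised 2457 (16.6%) and lowered 2817 (19.1%). The siRNA in control cultures raised 1750 (11.8%) and lowered 2208 (14.9%). The same combined comparison in libraries labelled iWAT raised 2528 (17.1%) and lowered 2890 (19.5%). No gene's combined difference passed the threshold for differing between the depot labels in edgeR, DESeq2 or limma voom. At an unadjusted p under 0.05 there were 390, 188 and 496 genes in that order. These tests took the libraries as independent, although same-numbered libraries deviated together, so they do not show that the labels agree.

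Genes were then sorted by where they started and where they ended. The start was the difference of aKO siNS from control, and 1229 genes passed the test with at least 1.5-fold (522 higher, 707 lower). A gene was called returned where the Cebpb siRNA moved it significantly back and the whole 95% interval of its combined difference lay within 1.5-fold of control. It was called apart where the combined difference still passed the test, at 1.5-fold or more and in the direction of the start. A gene that passed in the opposite direction had crossed, and the rest were undecided. The same control and knockout libraries enter the start and the end, so these counts describe the genes and test nothing further. The siRNA in control cultures is measured from the same control libraries, so part of its shared direction with a class can be built in.

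By this rule 116 of 1229 genes (9.44%) returned, 693 (56.4%) stayed apart, 132 (10.7%) crossed to the other side of control and 288 (23.4%) were undecided. The starting direction differed between the classes. Of the 693 genes that stayed apart, 511 had started lower and 182 higher. Of the 132 that crossed, 90 had started higher and 42 lower. The genes that stayed apart comprised 22 that moved significantly toward control, 357 with no significant step and 314 that moved further away. A further 655 genes had no start, with a 95% interval inside 1.5-fold, and appeared in the combined group with 1.5-fold or more (253 rose, 402 fell).

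**Figure D1:**
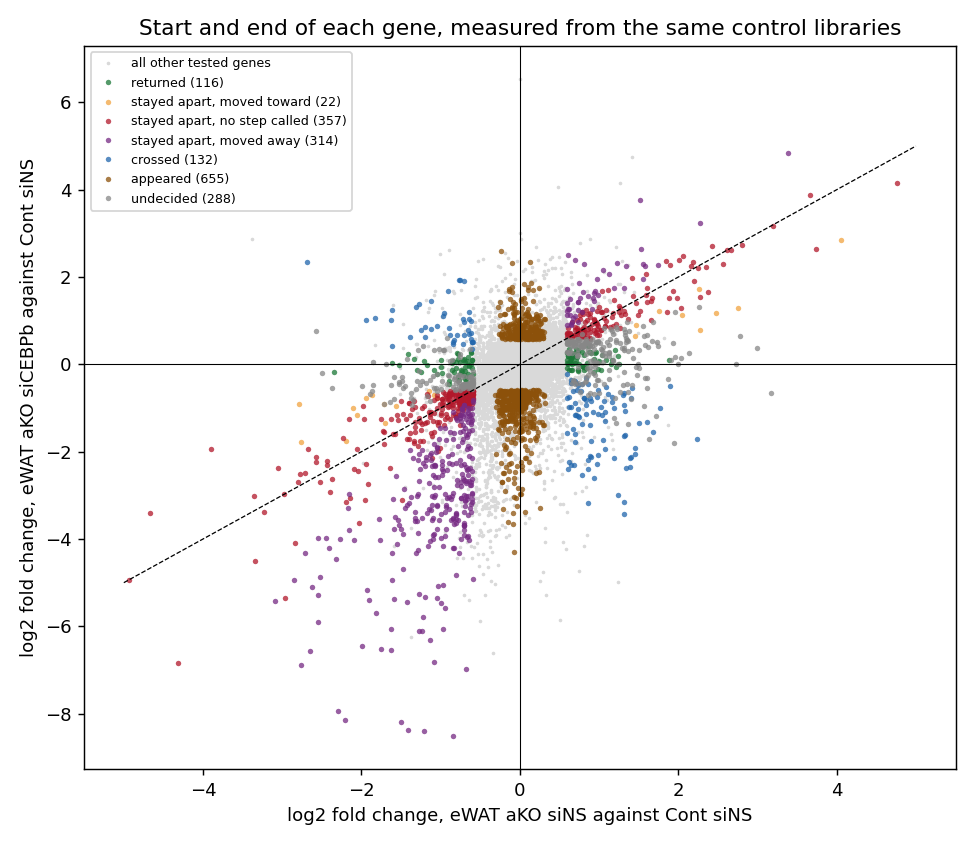
Each point is a tested gene, with the log2 fold change of aKO siNS against Cont siNS on the x axis and of aKO siCEBPb against Cont siNS on the y axis, both in eWAT libraries. Genes on the dashed line ended where they started, genes on the horizontal line ended at the control level, and the purple group of 314 genes that moved further away reaches the lowest values; colours give the classes and brackets their sizes.

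To show the kind of sequence at the starts of genes in these classes, 250 bases upstream of the RefSeq start of 4 members are given (build GRCm38.p6, 5′ to 3′ on the gene's strand). Capitals mark matches, on either strand, to TTGCNNAA, letters of a C/EBP site, or to TGATGNAA, letters of a mixed C/EBP and ATF site. The Pparg window (returned; chr6:115421816-115422065, plus strand) lies in an intron of the longer Pparg transcript in GENCODE M21, and the more distant of its 2 matches begins 215 bases before the start. The Sfrp2 window (crossed, started higher; chr3:83766071-83766320, plus strand), the Fgf21 window (crossed, started lower; chr7:45615491-45615740, minus strand) and the Clec4e window (moved away; chr6:123289872-123290121, minus strand) overlap no annotated gene. Their matches begin 45, 139 and 66 bases before the start.
Pparg: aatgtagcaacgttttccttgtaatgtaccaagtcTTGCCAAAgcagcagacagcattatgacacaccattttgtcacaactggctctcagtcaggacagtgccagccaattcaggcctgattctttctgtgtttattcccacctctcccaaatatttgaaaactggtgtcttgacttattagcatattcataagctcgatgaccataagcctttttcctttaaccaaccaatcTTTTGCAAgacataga
Sfrp2: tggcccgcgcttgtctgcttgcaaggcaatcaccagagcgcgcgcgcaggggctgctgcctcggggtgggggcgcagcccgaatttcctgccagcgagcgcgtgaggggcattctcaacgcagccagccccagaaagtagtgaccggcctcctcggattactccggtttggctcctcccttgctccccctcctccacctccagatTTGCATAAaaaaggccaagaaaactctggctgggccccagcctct
Fgf21: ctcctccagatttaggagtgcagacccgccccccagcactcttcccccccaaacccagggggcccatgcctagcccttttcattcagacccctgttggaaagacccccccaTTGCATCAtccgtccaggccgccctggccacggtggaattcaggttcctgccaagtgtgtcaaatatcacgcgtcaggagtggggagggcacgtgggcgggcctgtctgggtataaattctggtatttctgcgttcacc
Clec4e: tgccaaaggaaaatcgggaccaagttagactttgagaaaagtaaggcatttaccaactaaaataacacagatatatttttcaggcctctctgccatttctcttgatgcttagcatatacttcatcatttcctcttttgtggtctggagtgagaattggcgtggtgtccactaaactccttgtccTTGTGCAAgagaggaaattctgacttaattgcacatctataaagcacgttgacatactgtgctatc
A match is a run of letters and not a measured binding site. TTGCNNAA was found in 8.6% of 13740 windows of 300 bases (250 before and 50 after the start) of tested genes (10730 of 14783 tested symbols matched), and in 10.8% of all 32851 windows searched. By class it was found in 12 of 106 windows of returned genes (11.3%), in 32 of 326 of genes apart with no step (9.82%), in 50 of 313 of genes that moved away (16.0%), in 14 of 114 of crossed genes (12.3%) and in 67 of 662 of genes that appeared (10.1%). TGATGNAA was in 2.39% of windows of tested genes, in 5.75% for genes that moved away, 5.26% for crossed genes, 3.32% for genes that appeared, 3.07% for genes with no step and 1.89% for returned genes. None of 11 windows of genes that moved toward control held it, and 1 of them held TTGCNNAA (9.09%). The 4 genes were picked because they hold a match and stand for 3 classes, so they do not show how common one is.

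Among returned genes, Pparg, the master regulator of fat cell differentiation, held 24.8, 28.3 and 24.4 CPM in control and 36.7, 38.8 and 41.8 CPM in knockout cultures. With the siRNA as well it held 21.2, 24.8 and 26.9 CPM. The combined libraries overlapped control and lay below every knockout library. The start was 0.60 ± 0.14, the step -0.69 ± 0.14 (edgeR adjusted p = 0.000485) and the remaining difference -0.09 (95% interval -0.40 to 0.22). In libraries labelled iWAT the start of Pparg was 0.63 and the end 0.03.

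The largest returned start among higher genes was that of Gldc, the decarboxylase of the glycine cleavage system. It held 5.88, 4.95 and 5.13 CPM in control, 20.2, 21.3 and 17.2 CPM in knockout and 3.93, 6.87 and 6.29 CPM in combined cultures. A start of 1.88 ± 0.14 thus ended at 0.09 (95% interval -0.26 to 0.43). Aldh1a1, a retinaldehyde dehydrogenase, went from 46.4, 50.0 and 47.4 CPM in control to 102 to 103 CPM in knockout and to 43.0, 54.8 and 56.3 CPM in combined cultures. Gas6, the ligand of the TAM receptors, was abundant, at 1287 to 1443 CPM in control, 2899 to 3237 CPM in knockout and 1630 to 1780 CPM in combined cultures. Its end of 0.34 ± 0.09 still passed the test (edgeR adjusted p = 0.00393) although its interval lay within 1.5-fold. Ggt5, Cpz and Gldc ended with intervals that included 0, as did Pde7b and Plekhg4.

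Genes that had started lower returned too. Cadm4, an adhesion molecule, held 6.36, 7.60 and 8.12 CPM in control, 1.15, 1.22 and 1.88 CPM in knockout and 6.81, 6.94 and 5.88 CPM in combined cultures. The start was -2.35 ± 0.19 and the end -0.17 (95% interval -0.47 to 0.13). In control cultures the siRNA raised Cadm4 by 0.88, to 13.1 to 14.3 CPM. Notch4, a Notch receptor of endothelium, held 12.5 to 15 CPM in control, 5.23 to 5.38 CPM in knockout and 12.6 to 16.2 CPM in combined cultures, and the combined and control libraries overlapped. Hs6st2, which adds sulfate to heparan chains, moved from -1.30 to -0.14 (-0.29 without combined replicate 1, edgeR adjusted p = 0.0384), and Gpr39, a zinc-sensing receptor, from -1.09 to -0.12. Prkg2, a cGMP-dependent kinase, moved from -1.21 to 0.07. Over the 116 returned genes, the siRNA in control cultures raised 21 and lowered 13, where it raised 11.8% and lowered 14.9% of all tested genes. The corresponding end of 84 of the 116 lay within 1.5-fold, by its 95% interval, in the libraries labelled iWAT, and 57 met the whole rule there. The share of all tested genes inside that bound is not given, so the 84 do not by themselves show a return under that label.

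**Figure D2:**
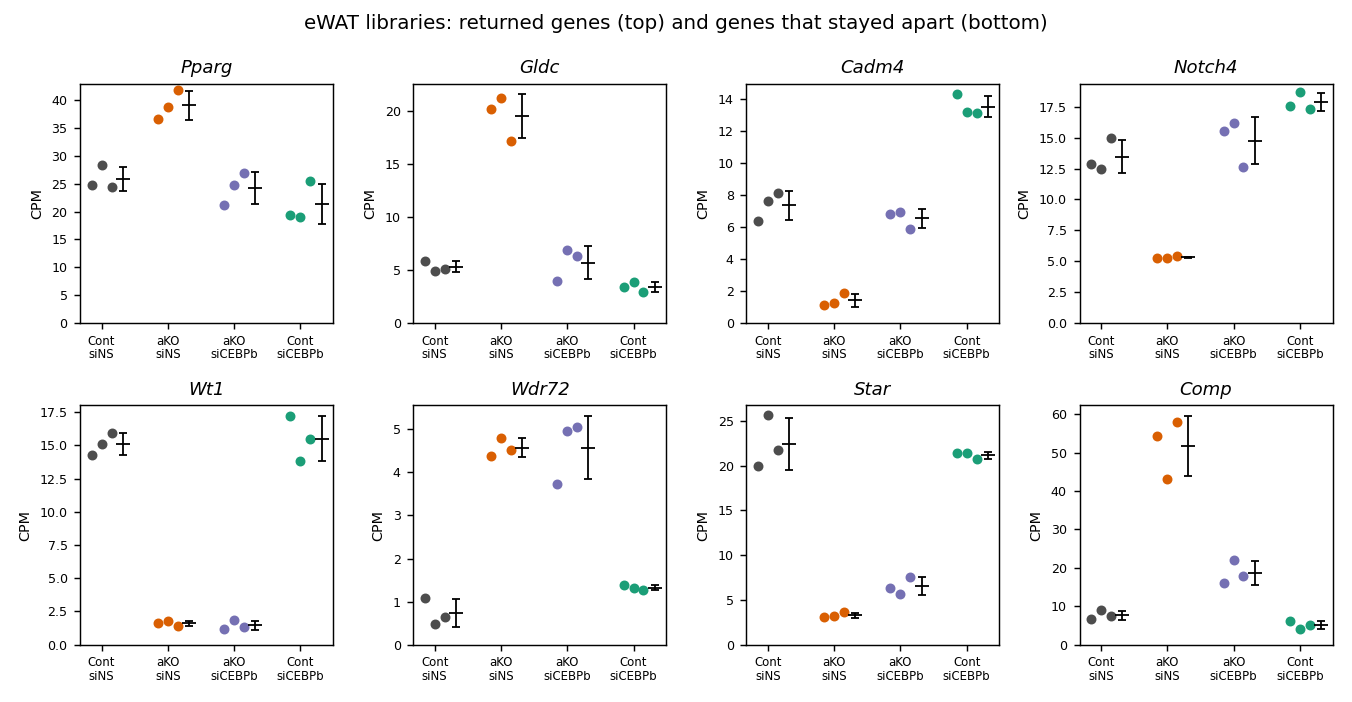
CPM (y axis, linear from 0) of 8 genes in the 12 eWAT libraries, by group on the x axis; dots are libraries and bars the mean ± SD of 3. In the top row (Pparg, Gldc, Cadm4, Notch4) the combined libraries overlap or lie beside control, and in the bottom row (Wt1, Wdr72, Star, Comp) they lie apart from it.

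A group of 357 genes kept its knockout difference with no significant step when Cebpb was lowered. Wt1 was the clearest of the lower ones. From 14.3 to 15.9 CPM in control it fell to 1.43 to 1.76 CPM in knockout cultures and stood at 1.18, 1.85 and 1.31 CPM in combined cultures. The start was -3.23 ± 0.14, the step -0.15 (edgeR adjusted p = 0.673) and the end -3.39 ± 0.15 (edgeR adjusted p = 4.64e-16). In control cultures the siRNA left Wt1 at 13.8 to 17.2 CPM, overlapping control.

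Other lower genes of this class included receptors and an adhesion molecule. Adcyap1r1, the receptor of the peptide PACAP, held 91.2 to 125 CPM in control, 15.2 to 23.1 CPM in knockout and 15.5 to 18.8 CPM in combined cultures. Cdh5, the cadherin of endothelial junctions, held 5.00 to 6.65 CPM in control, 1.30 to 2.00 CPM in knockout and 1.70 to 2.29 CPM in combined cultures. Gria4, a glutamate receptor subunit, ended at -2.93 ± 0.21. For each of these the combined and knockout libraries overlapped and lay below every control library.

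Among higher genes with no significant step, Wdr72 held 0.475 to 1.09 CPM in control, 4.39 to 4.81 CPM in knockout and 3.73, 4.95 and 5.05 CPM in combined cultures. Its end was 2.61 ± 0.24 after a start of 2.62. Scg2, a secretory granule protein, held 4.13 to 6.57 CPM in control, 31.8 to 32.8 CPM in knockout and 17.1, 35.1 and 30.1 CPM in combined cultures, and replicate 1 was the low library. Tbx1, a T-box factor listed among beige fat markers, held 0.136 to 0.356 CPM in control, 1.94 to 2.39 CPM in knockout and 1.83 to 2.81 CPM in combined cultures. Omd, Angptl1 and Akr1c14 belonged to the same class. A p above the threshold for the step does not show that these genes failed to move. The median step was -0.03 over the 126 higher and -0.05 over the 231 lower genes, with single steps from -2.52 to 1.97. Medians near 0 follow from the choice of genes with no significant step.

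Star, the mitochondrial cholesterol carrier of steroid synthesis, was among 22 genes that moved back but not to control. It held 20.0, 25.6 and 21.7 CPM in control, 3.08 to 3.63 CPM in knockout and 6.29, 5.69 and 7.61 CPM in combined cultures, and the 3 groups did not overlap. The step was 0.98 ± 0.16 (edgeR adjusted p = 1.48e-05) and the end -1.78 ± 0.12. Comp, a cartilage matrix protein, held 6.64 to 8.95 CPM in control, 43.1 to 58.0 CPM in knockout and 16.1 to 22.1 CPM in combined cultures, and ended at 1.28 ± 0.16. Apod, a lipid-binding secreted protein, fell from 50.7 to 58.4 CPM in knockout to 33.9 to 41.8 CPM, above 9.16 to 13.1 CPM in control. Des, the muscle filament desmin, ended at -1.16 ± 0.14 after -2.05. Tmem158 ended at 0.79 ± 0.24 and lost its call without combined replicate 2 (edgeR adjusted p = 0.0917).

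The class that moved further from control held the largest falls of the whole comparison. Of its 314 genes, 267 had started lower, with a median start of -0.94 and a median end of -3.06, and 47 had started higher, with medians of 0.80 and 1.60. F13a1, the A chain of coagulation factor XIII and a macrophage gene, held 41.3, 45.8 and 38.5 CPM in control, 9.62, 9.61 and 8.03 CPM in knockout and 0.0655, 0.148 and 0.208 CPM in combined cultures, the last being levels of 1, 2 and 3 counts. Its end was -8.14 ± 0.24 (edgeR adjusted p = 2.62e-19). Lcn2, an iron-binding acute phase protein, held 25.2, 47.6 and 31.6 CPM in control and 0.0655, 0.295 and 0.553 CPM in combined cultures, and ended at -6.81 ± 0.52. Clec4e, a receptor for mycobacterial and damage ligands on myeloid cells, ended at -6.97, the Fc receptor Fcgr2b at -6.54, the chemokine Ccl6 at -6.32, the integrin Itgam at -6.05 and the scavenger receptor Stab1 at -5.79. All of these had control libraries that lay above every knockout library except Clec4e, whose control replicate 3 (11.4 CPM) lay among the knockout libraries (11.2 to 12.0 CPM).

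Many of these genes are macrophage genes, and markers of leukocytes fell as a list. Of 16 tested leukocyte markers, 15 fell and 0 rose in the combined group, with a median log2 difference of -3.60 where the median of all tested genes was 0.02. Itgax was the member that did not pass, at -0.68. By comparison, 20.3% of all tested genes fell and 19.0% rose. The summed level of the 16 was 2223 to 3114 CPM in control, 1737 to 1833 CPM in knockout, 108 to 229 CPM in combined cultures and 452 to 539 CPM in control cultures with the siRNA. Lyz2, the macrophage lysozyme and the most abundant of them, held 1675, 1599 and 1234 CPM in control and 37.6, 55.5 and 90.5 CPM in combined cultures. In bulk RNA, fewer cells of a type and less RNA per cell cannot be told apart. The part of these markers in the falls of other genes was not tested. The lymphocyte markers Cd3e, Ms4a1 and Nkg7 each held at most 3 counts in all 24 libraries together.

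Acute phase and NF-κB target genes fell beside the leukocyte markers, with 21 of 30 lower, 5 higher and a median of -1.16. By comparison, 20.3% of all tested genes fell and 19.0% rose. Serpina3n, a liver-type protease inhibitor, held 533, 722 and 590 CPM in control, 786 to 949 CPM in knockout and 51.0 to 84.7 CPM in combined cultures, an end of -3.20 ± 0.17. Hp, haptoglobin, held 702 to 1023 CPM in control and 138 to 287 CPM in combined cultures. C3, the central complement protein, ended at -3.39, and Saa3 at -3.37. The 5 members that rose were Ccl7, Csf1, Vcam1, Ptgs2 and Lif, at 0.70 to 1.38. Csf1, the growth factor of macrophages, rose from 1005 to 1134 CPM in control to 1811 to 2303 CPM.

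Few genes that moved away had started higher. Ptn, the heparin-binding growth factor pleiotrophin, showed the largest rise, from 0.616, 0.678 and 0.427 CPM in control through 5.31, 9.55 and 3.56 CPM in knockout to 11, 18.3 and 20.9 CPM in combined cultures. The end was 4.83 ± 0.47 (edgeR adjusted p = 7.71e-08). Ptprz1, a receptor phosphatase that binds pleiotrophin, rose by 4.07 ± 0.23 with no significant start (0.48). Col8a2, a short-chain collagen, went from 7.33 to 8.41 CPM in control through 20.7 to 25.4 CPM in knockout to 96.0 to 131 CPM. Gsta4, a glutathione transferase, ended at 3.23 ± 0.23. In control cultures the siRNA alone raised Ptn by 3.86, Ptprz1 by 2.80, Col8a2 by 3.38 and Gsta4 by 1.94. Over the 47 genes that moved away from a higher start it raised 44, where it raised 11.8% of all tested genes.

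Of 24 fat cell identity genes, 4 crossed and 1, Pparg, returned. Among the former, Slc2a4, the insulin-responsive glucose transporter GLUT4, held 5.34, 7.53 and 7.12 CPM in control, 13.8, 16.8 and 19.4 CPM in knockout and 1.70, 3.18 and 4.70 CPM in combined cultures. It started at 1.33 ± 0.24 and ended at -1.07 ± 0.31 (edgeR adjusted p = 0.00883, and 0.0582 without combined replicate 1). Cebpa held 92.4, 120 and 111 CPM in control, 160, 162 and 185 CPM in knockout and 40.3, 70.2 and 55.1 CPM in combined cultures, with no overlap, and ended at -0.97 ± 0.18. Retn, the hormone resistin, followed the same course from 0.89 to -2.11.

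The list of 24 fat cell identity genes started with 9 higher and 0 lower (median 0.61) and ended with 3 higher and 10 lower (median -0.65). Without combined replicate 1, 6 fell. Across all tested genes, 9.5% rose and 10.9% fell at the start, and 19.0% rose and 20.3% fell at the end. Lpl, the lipase that frees fatty acids from lipoproteins, held 949, 1156 and 937 CPM in control, 1202 to 1346 CPM in knockout and 224, 445 and 397 CPM in combined cultures, an end of -1.51 ± 0.25. Rbp4, the carrier of retinol, ended at -1.94, and Fabp4, the fatty acid binding protein of fat cells, at -0.73 (edgeR adjusted p = 0.0403). That call was lost without combined replicate 1 (0.17) or 2 (0.0607) and without control replicate 2 (0.158) or 3 (0.0554). Plin1, which coats lipid droplets, held 53.3, 117 and 107 CPM against 108, 160 and 134 CPM in control and ended at -0.54 (95% interval -1.13 to 0.05). The 3 members that rose were Mgll, Nnat and Pck1.

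Adipoq, which encodes adiponectin, differed in sign from most of its list at the end. It held 58.2, 80.3 and 70.6 CPM in control, 126, 157 and 185 CPM in knockout and 73.4, 133 and 131 CPM in combined cultures. The end of 0.69 ± 0.28 did not pass (edgeR adjusted p = 0.0627) and did so without combined replicate 1 (edgeR adjusted p = 0.0169). Its interval of 0.09 to 1.29 leaves it undecided between return and staying apart. Lep, the hormone leptin, held 0.543 to 0.616 CPM in control and 0.197, 0.960 and 0.623 CPM in combined cultures, an end of 0.01 with an interval of -1.21 to 1.22. Lipogenic genes ended with 12 of 20 lower and 1, Elovl6, higher at 0.58 (median -0.57), from a start of 3 higher. By comparison, 20.3% of all tested genes fell and 19.0% rose. When a library was left out, 9 to 13 lipogenic genes were lower. Fasn and Scd1 lost their calls without combined replicate 1 (edgeR adjusted p = 0.128 and 0.08). Dgat2, which makes triglyceride, led the lipogenic falls at -2.18 ± 0.25.

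**Figure D3:**
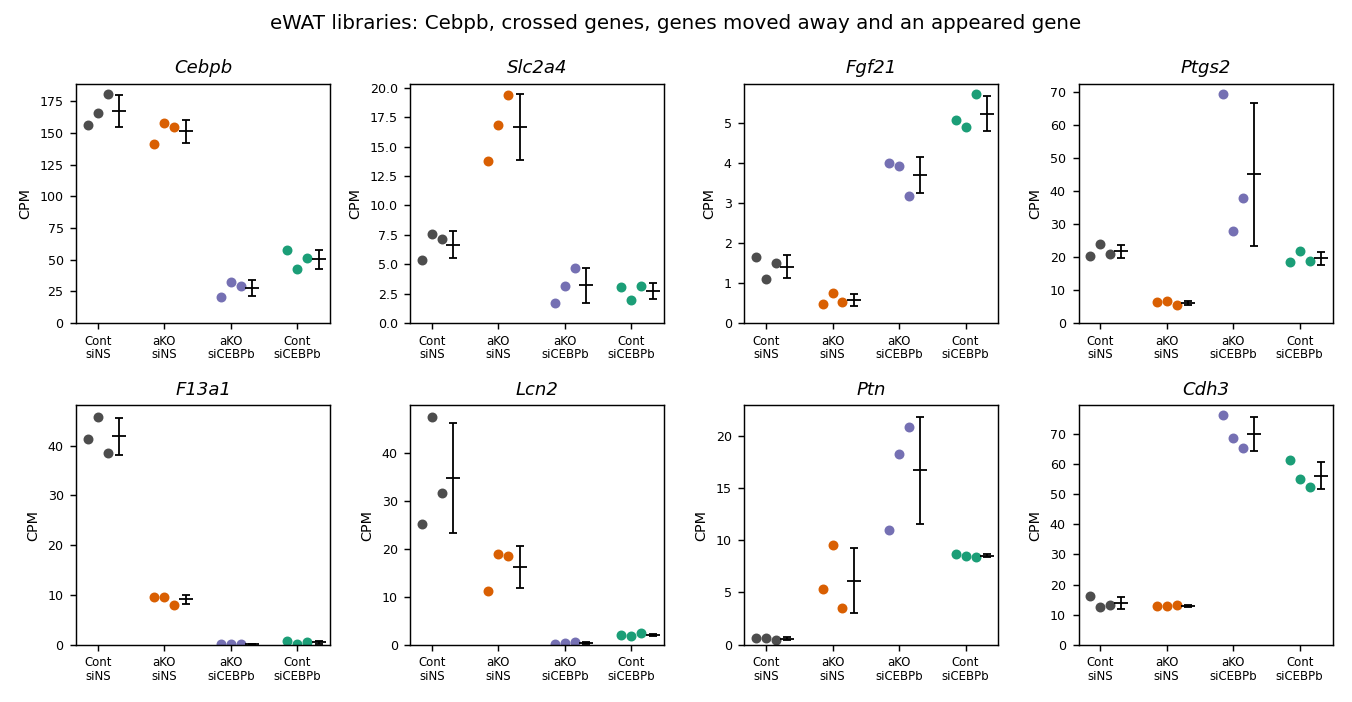
CPM (y axis, linear from 0) of 8 genes in the 12 eWAT libraries, by group on the x axis; dots are libraries and bars the mean ± SD of 3. Slc2a4 ends below control after a higher start, Fgf21 and Ptgs2 end above it after a lower start, F13a1 and Lcn2 end near 0, and Cdh3 departs from 12.5 to 16.1 CPM to 65.3 to 76.4 CPM with no start.

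Genes that crossed from a higher start included secreted and enzyme genes of stromal cells. Sfrp2, a secreted Wnt modulator, held 313, 348 and 309 CPM in control, 868, 812 and 876 CPM in knockout and 142, 208 and 219 CPM in combined cultures. It ended at -0.77 ± 0.15. Alpl, tissue alkaline phosphatase, ended at -2.13 ± 0.18 and Draxin, an axon guidance protein, at -2.14 ± 0.11, both after starts near 1.40. Draxin held 52.8 to 55.8 CPM in control, 127 to 156 CPM in knockout and 9.96, 12.6 and 14.4 CPM in combined cultures. In control cultures the siRNA lowered 72 of these 90 genes and raised 1, where it lowered 14.9% of all tested genes and raised 11.8%.

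Genes that crossed upward had started lower. Fgf21, a metabolic hormone and a target of the stress factor ATF4, held 1.64, 1.09 and 1.5 CPM in control, 0.462, 0.745 and 0.518 CPM in knockout and 4.00, 3.92 and 3.18 CPM in combined cultures. The start was -1.27 ± 0.33 and the end 1.39 ± 0.23 (edgeR adjusted p = 1.57e-05). Inhba, the subunit of activin A, held 164 to 170 CPM in control, 68.1 to 74.5 CPM in knockout and 316, 218 and 239 CPM in combined cultures. Ptgs2, which encodes cyclooxygenase 2, held 20.3, 23.9 and 20.9 CPM in control, 5.44 to 6.57 CPM in knockout and 69.2, 27.9 and 37.8 CPM in combined cultures, where replicate 1 was the highest. Its end of 1.06 ± 0.27 did not pass when the 6 libraries were fitted alone (edgeR adjusted p = 0.115). For Ptgs2 and Inhba the control libraries with the siRNA differed from control by -0.14 and 0.17, neither past the test.

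Fgf21 belongs to a list of ATF4 and amino acid stress genes, most of which ended higher. From 2 higher and 13 lower at the start (median -0.10), 23 of 30 were higher and 2 lower at the end (median 0.59). Across all tested genes, 9.5% rose and 10.9% fell at the start, and 19.0% rose and 20.3% fell at the end. Slc7a5, a transporter of large neutral amino acids, rose from 96.3 to 98.9 CPM in control to 302, 349 and 262 CPM, an end of 1.65 ± 0.10. Phgdh, the first enzyme of serine synthesis, ended at 1.18 ± 0.09, and Chac1, which degrades glutathione, at 1.72 ± 0.11. Vldlr and Ddit4 were the members that fell. In control cultures with the siRNA, 26 of the 30 were higher, where 11.8% of all tested genes rose.

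Interferon-responsive genes had hardly started and ended higher. Of 24 tested, 3 were higher at the start (median 0.00) and 18 at the end (median 0.94), with 0 lower. Across all tested genes, 9.5% rose at the start and 19.0% at the end. Ifit3, an antiviral effector, held 22.2 to 31.2 CPM in control, 39.1 to 59.9 CPM in knockout and 151, 123 and 133 CPM in combined cultures, an end of 2.29 ± 0.18. Oasl2 ended at 1.29 ± 0.22, with control libraries from 42.5 to 81.6 CPM. Of the 24, 18 were also higher with the siRNA in control cultures, where 11.8% of all tested genes rose.

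Contractile genes of smooth muscle and pericytes ended with 9 of 14 higher (median 1.18), from 1 higher and 2 lower at the start (median -0.30). Acta2, smooth muscle actin, held 896, 800 and 995 CPM in control, 744 to 772 CPM in knockout and 2636, 2038 and 2246 CPM in combined cultures. Cnn1, calponin, ended at 2.26 ± 0.21 and Myh11, smooth muscle myosin, at 1.94 ± 0.14. Des and Cspg4 were the 2 members that fell. Among 30 collagen and matrix genes, 10 rose and 4 fell (median 0.15), where 19.0% of all tested genes rose and 20.3% fell. Tnmd, tenomodulin, rose by 2.07 and Thbs1, thrombospondin 1, by 1.32, whereas Col3a1 fell by 1.04.

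Genes with no start that appeared in the combined group included Cdh3, the cadherin P-cadherin, which held 12.5 to 16.1 CPM in control, 12.7 to 13.2 CPM in knockout and 76.4, 68.8 and 65.3 CPM in combined cultures. Its end was 2.33 ± 0.10. Rflnb rose by 2.6 ± 0.09 and C1qtnf3, an adipokine of the C1q family, by 2.34 ± 0.11. Chl1, a neural adhesion molecule, fell from 77.0 to 96.5 CPM in control to 4.91, 5.98 and 9.82 CPM, and Tnfsf11, the cytokine RANKL, from 14.2 to 17.2 CPM to 1.38 to 1.85 CPM. The siRNA in control cultures raised 227 of the 253 genes that rose in this class and lowered 345 of the 402 that fell. Over all tested genes it raised 11.8% and lowered 14.9%, and it shares the control libraries that chose the class.

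Cell division and glycolysis genes were mostly lower at the start and at the end. Of 36 cell cycle genes, 31 had fallen in knockout cultures (median -0.54) and 32 were lower in the combined group (median -0.69), with 0 higher. In the step from knockout to combined cultures 8 of them fell and 0 rose (median -0.15). Mki67, the proliferation marker Ki-67, held 225, 202 and 203 CPM in control, 132, 127 and 118 CPM in knockout and 95.3, 77.8 and 83.6 CPM in combined cultures, without overlap. Its end was -1.30 ± 0.08 (edgeR adjusted p = 3.76e-13). Of 23 glycolysis and hypoxia genes, 18 had fallen at the start (median -0.48) and 19 at the end (median -0.80), with 0 higher, and 18 fell in the step (median -0.42). Slc16a3, the lactate exporter MCT4, held 223 to 239 CPM in control, 91.4 to 99.6 CPM in knockout and 46.1 to 55.5 CPM in combined cultures, and Pdk1, which holds pyruvate out of the citric acid cycle, ended at -1.5 ± 0.09. The siRNA in control cultures lowered 32 of the cell cycle genes and 20 of the glycolysis genes. Across all tested genes, 10.9% fell at the start, 20.3% at the end, 19.1% in the step and 14.9% with the siRNA in control cultures.

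Cholesterol synthesis genes were mostly higher at the start, and fewer were at the end. In knockout cultures 20 of 24 were higher (median 0.39), and in the combined group 13 were higher and 1, Ebp, lower (median 0.30), whereas the siRNA in control cultures gave 3 higher and 4 lower. The step lowered 10 and raised 2. Across all tested genes, 9.5% rose at the start and 19.0% at the end, and the step lowered 19.1% and raised 16.6%. Hmgcs1, which makes HMG-CoA, held 199, 191 and 222 CPM in control, 241 to 256 CPM in knockout and 279, 248 and 286 CPM in combined cultures. Its end was 0.41 ± 0.09, and the combined libraries lay above every control library.

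Mitochondrial lists lay near control at the end. Of 37 oxidative phosphorylation genes, 9 had been higher in knockout cultures (median 0.23), 9 fell in the step, and 1 was higher and 0 lower than control at the end (median 0.04). Without the shallow iWAT library the end gave 5 higher and 2 lower. Fatty acid oxidation genes gave 3 higher and 2 lower of 19 (median 0.06) and citric acid cycle genes 1 higher and 3 lower of 19 (median -0.01). Across all tested genes, 9.5% rose at the start, 19.1% fell in the step, and 19.0% rose and 20.3% fell at the end. Leaving out a library changed the counts of these 2 lists. Fatty acid oxidation gave 1 higher without combined replicate 2 and 4 lower without control replicate 1. Citric acid cycle gave 0 lower without combined replicate 1, and 1 lower without combined replicate 2 or control replicate 2 or 3. Ppargc1a, a coactivator of mitochondrial genes, held 0.684, 0.475 and 0.641 CPM in control, 1.96 to 2.66 CPM in knockout and 0.459, 0.813 and 0.761 CPM in combined cultures. It overlapped control, but its interval of -0.57 to 0.89 left it undecided. Ucp1 held 1 count and Cidea 4 counts in the 24 libraries together, so the defining brown fat genes were at or near 0. Of 20 tested brown and beige fat genes, 4 were higher and 7 lower at the end, where 19.0% of all tested genes were higher and 20.3% lower. Prdm16 differed from control by -0.18 (edgeR adjusted p = 0.268) and Dio2 by -0.62 (edgeR adjusted p = 0.179).

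Markers of the other cell types that such cultures can hold were read with the same fit. Of 12 endothelial markers, 8 fell and 2 rose (median -0.98), and their summed level was 160 to 181 CPM in control, 104 to 118 CPM in knockout and 111 to 116 CPM in combined cultures. Of 6 tested mesothelial markers, 3 fell (Wt1, Krt7, Krt19), and the sum was 24.6 to 26.2 CPM in control, 6.09 to 7.51 CPM in knockout and 6.75 to 7.98 CPM in combined cultures. Of 18 fibroblast and progenitor markers, 5 rose and 5 fell (median -0.06), where 19.0% of all tested genes rose and 20.3% fell. The sum of the 18 was 36842 to 38238 CPM in control and 25739 to 32460 CPM in combined cultures. None of 4 epithelial markers was abundant enough to test. The part of these markers in the class counts was not tested.

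**Figure D4:**
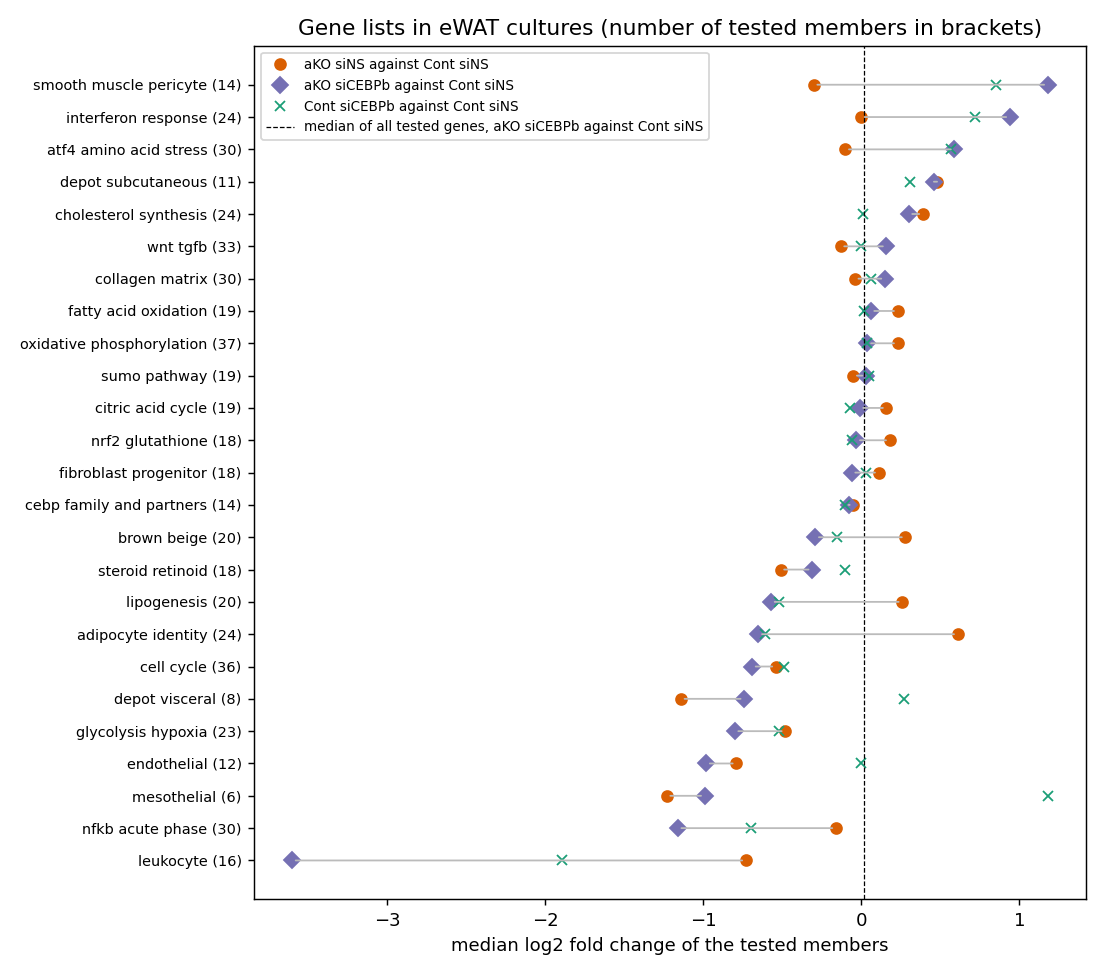
Median log2 fold change (x axis) of the tested members of each gene list (y axis, number tested in brackets) for knockout (circles), combined (diamonds) and control cultures with the siRNA (crosses), each against Cont siNS in eWAT. The diamonds lie at -3.60 for leukocyte markers and at 1.18 for smooth muscle and pericyte genes, and the dashed line marks the median of all tested genes, 0.02.

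The remaining lists were divided, and 19.0% of all tested genes rose and 20.3% fell in the same comparison. Of 33 Wnt and TGF-β genes, 12 rose and 10 fell, and 4 of them returned. Of 18 steroid and retinoid genes, 2 rose and 8 fell, among them Hsd11b1, which reactivates glucocorticoids, at -2.32 ± 0.19. Of 18 NRF2 and glutathione genes, 5 rose and 6 fell, and of 14 C/EBP family genes and partners, 3 rose and 4 fell. Cebpd, the partner of Cebpb in early differentiation, was lower by -0.30 ± 0.10 (edgeR adjusted p = 0.017, but 0.0743 and 0.0663 without control replicate 2 or 3). Of 8 visceral depot genes, 5 fell and 1 rose, the same counts as at the start, and the siRNA in control cultures raised 3 and lowered 0. Tcf21 fell from 3.84 to 4.27 CPM in control to 0.138 to 0.369 CPM in combined cultures. Of 11 subcutaneous depot genes, 8 rose and 1 fell, with Irx3 at 1.51 and Irx5 at 1.53. At the start 6 had risen and 1 had fallen, and the siRNA in control cultures raised 7 and lowered 1. The summed level of the 11 was 609 to 629 CPM in control, 1137 to 1202 CPM in knockout and 550 to 618 CPM in combined cultures.

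**Figure D5:**
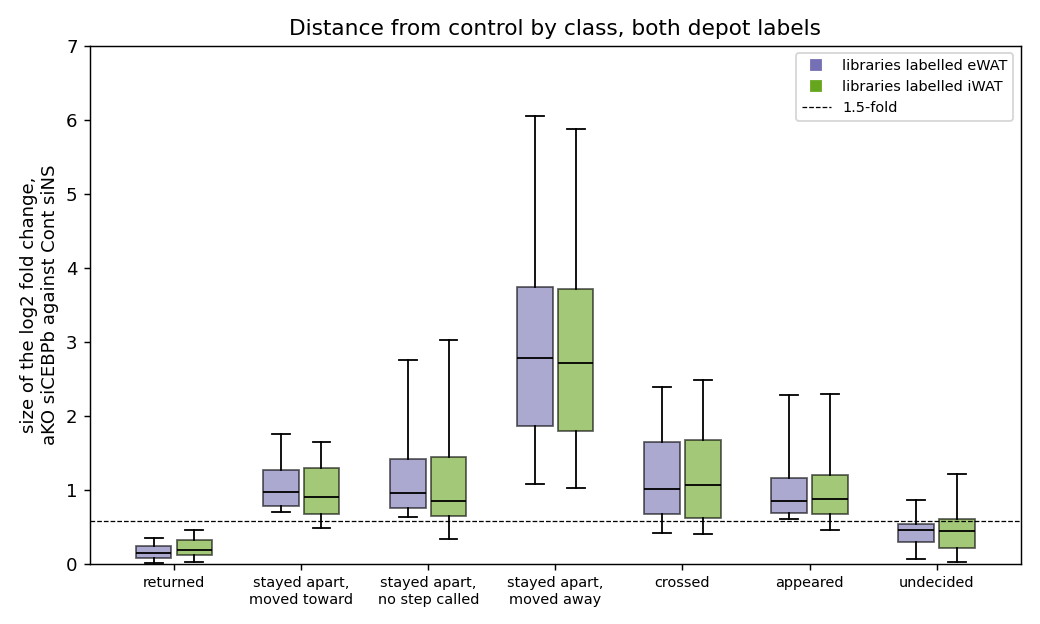
Size of the log2 fold change of aKO siCEBPb against Cont siNS (y axis, linear, without sign) for the genes of each class (x axis) in libraries labelled eWAT, which chose the classes, and in those labelled iWAT. Boxes show quartiles and medians and whiskers the 5th to 95th percentile of genes; the dashed line marks 1.5-fold, and genes that moved away are largest under both labels.

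In libraries labelled iWAT, 174 of the 357 genes with no step, 211 of the 314 that moved away, 87 of the 132 that crossed and 13 of the 22 that moved toward control met the same rule. The sign of the combined difference was shared by 352, 314, 131 and 21 of them. Given the correlations between the depot labels above, and with no share over all tested genes beside them, these counts are a description.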

How the data were processed

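Poly(A) RNA of 24 mouse libraries was sequenced from a directional kit, per the labels. The submitters' processing notes name cutadapt 2.7, TopHat2 2.1.1, HTSeq and the build GRCm38, with no order or settings. The deposited table holds whole-number counts per gene. Whether reads were counted by strand is not stated, which leaves a gene and its antisense neighbour uncertain. Counter lines that name no gene held 27.5% to 39.5% of listed reads in 23 libraries and 95.9% in the shallow library, and stayed out of library sizes.

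Groups followed the labelled depot, genotype and siRNA. Counts were fitted in R 4.3.3 with edgeR 4.0.16 (TMM, filterByExpr with a minimum count of 10, 8 group means over 24 libraries, robust quasi-likelihood), and p-values were adjusted by Benjamini and Hochberg over 14785 tested genes of 53465, with a threshold of 0.05. Each SE is the log2 fold change over the square root of F, and intervals are at 95%. The fit was tested on simulated data. Alternatives used DESeq2 1.42.0, limma 3.58.1 voom, other filters, scalings, subsets, folds and each library left out. Symbols and positions came from GENCODE M21, and upstream windows, those on chromosome 18 left out, from RefSeq.

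The comparison, classes and 26 gene lists were chosen with earlier results of these data known. Named genes were 20 fixed genes, the 10 largest rises and falls, the 8 largest per class and direction, and 4 by p and 4 by level per list, where the ranked rules required an average log2 CPM of 1 or more, an assigned gene name and libraries that did not overlap. A few further list members are named after their values were seen, where a count is small or a member stands apart from its list. Within eWAT, replicate numbers were checked for pairing over 8159 genes averaging 200 or more counts. The correlation of deviations was over 0.1 in 3 of 9 pairs, so the numbers were not taken as pairs.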

Additional observations from a re-analysis of the deposited data

How the results depend on the processing

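The 5804 genes of the combined comparison were 4936 to 5446 when a library of its groups was left out, 6525 without the shallow iWAT library, 6150 in the 12 eWAT libraries alone, 4893 in the DESeq2 Wald test and 6366 in limma voom. Tested against a fold of 1.2 (glmTreat), the counts fell to 3256 for the combined comparison, 1208 for the start, 2810 for the step, 1968 for the siRNA in control cultures and 3083 in libraries labelled iWAT. The siRNA in control cultures gave 5938 genes in limma voom against 3958. Voom also gave 4455 genes for the start against 3013 as reported. Leaving out a library gave 2087 to 2646 genes for the start, 4294 to 4968 for the step and 3104 to 3521 for the siRNA in control cultures.

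Returned genes numbered 98 to 135 when a library was left out, and between 84 and 105 of the 116 were among them. They were 77 with a 99% interval, which is wider by construction. With a 2-fold margin, which also changes the starting genes, 79 genes returned (22 of them among the 116), 588 appeared (229 among the 655), 10 genes moved toward control, 138 had no step, 134 moved away, 51 crossed and 111 were undecided. Leaving out a library gave 19 to 28, 307 to 401, 241 to 363, 100 to 138 and 223 to 337 in that order, and 599 to 721 that appeared. The palindrome TTGCGCAA was found in 0.313% of windows of tested genes, against 8.6% for the wider pattern that contains it.

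The fall of fat cell identity genes was 10 members as reported, 6 without combined replicate 1 and 17 with no filter on low counts. Without the shallow library, fatty acid oxidation gave 5 lower and citric acid cycle 5 lower. Collagen and matrix then gave 14 higher and 7 lower, against 10 and 4 as reported. Against a fold of 1.2, cholesterol synthesis gave 6 higher. Rises in the SUMO pathway were 2 with DESeq2 size factors and in the 12 eWAT libraries alone. When a library was left out, oxidative phosphorylation gave 0 to 1 higher and 0 to 1 lower, endothelial markers 1 to 2 higher and steroid and retinoid genes 1 to 2 higher. Of 227 named genes past the threshold, 190 kept their call and direction in all alternatives run, and no named gene past the threshold reversed. Many named genes were chosen for large differences or small p-values in these data, so this does not extend to all called genes. Among the 5804 called genes, 4828 to 5180 were called again when a library of the 2 groups was left out. The cause of these shifts was not tested.

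With the replicate block the combined comparison gave 5808 genes, the start 3054, the step 5282, the siRNA in control cultures 3982 and libraries labelled iWAT 5398. Of 9 eWAT libraries, 1 correlated best with a library of its own number. Under the block Adipoq passed (edgeR adjusted p = 0.0295), as did Plin1 (edgeR adjusted p = 0.048), and Atf4 did not (edgeR adjusted p = 0.0589). Genes at low counts such as Lep and Ppargc1a had intervals that reach beyond 1.5-fold; the parts of depth and of spread between libraries were not told apart.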
